A study of Caenorhabditis elegans with 2 samples.

Results

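The genes described here encode the DRM complex of the nematode Caenorhabditis elegans, the worm form of the DREAM complex. They are the 8 genes lin-35, efl-1, dpl-1, lin-9, lin-37, lin-52, lin-53 and lin-54. They were chosen by name as subunits of the complex, and all 8 were among the 46890 annotated nuclear genes, of which 19973 are protein-coding. The complex keeps cell cycle genes and, in somatic cells, germ line genes repressed. It joins a pocket protein of the retinoblastoma family, an E2F and DP pair that binds DNA, and a MuvB core that binds DNA through its own subunit. In the worm its genes belong to the synMuv B class, named for the many vulvae that form when a gene of this class and one of the synMuv A class are lost together.

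Chromatin immunoprecipitation and sequencing mapped Y116A8C.19, which the reference annotation describes as a protein with a C3H1-type domain, in hermaphrodite L1 larvae, 6 hours after release from the starved L1 stage that follows bleaching. The 2 libraries are biological replicates of a single group, and nothing was compared with another condition. The worms were of strain OP532, genotype unc-119(tm4063) III; wgIs532, and so all carried the unc-119 allele and the transgene that makes Y116A8C.19 with a C-terminal GFP and FLAG tag. An antibody against GFP pulled down the DNA. Neither the promoter nor the copy number of the transgene is stated in the labels, and whole larvae mix all cell types, so binding in 1 tissue and in many cannot be told apart. No control library was analysed here, and the depth of sequencing is unknown.

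The authors deposited 4 lists of regions in ce11 (WBcel235). The lists of replicate 1 and replicate 2 held 22595 and 22358 regions and mix peaks with background, so that a listed region is no call by itself. The pooled list, called on both libraries together, held 2689 regions, and the thresholded list held 198. The pooled list also mixes peaks with background, and its −log10 q-values ran from 0.0173 to 2.66. A pooled region past the threshold is thus no call by itself either. The threshold is that of the irreproducible discovery rate (IDR), and the 198 regions were those of highest signal in the pooled list. Signal is a value per region in the authors' units, on a scale they do not state, and it was compared only within a list. A region was assigned to a gene when its summit lay in a window around the annotated 5′ end, which reached 1000 bp upstream and 200 bp into the gene; negative distances are upstream.

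Thresholded regions lay in the promoter windows of 2 of the 8 genes, lin-35 and lin-54, in each case with the summit nearer a neighbouring gene. In comparison, 1.18% of all protein-coding genes, and 0.642% of all genes, had a thresholded region. The pooled list added efl-1 and lin-53, which made 4 of 8 genes against 6.66% of protein-coding genes. The remaining members, dpl-1, lin-9, lin-37 and lin-52, had no pooled region in their windows. When the 198 best regions of 1 library were taken in place of the thresholded list, replicate 1 gave lin-35 and lin-54 and replicate 2 gave lin-35 alone. In every case of a pooled region the window was shared with a neighbouring gene on the other strand. These counts describe the 8 genes, and no test of the list was made. The genes were chosen with earlier results of these data known.

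**Figure D1:**
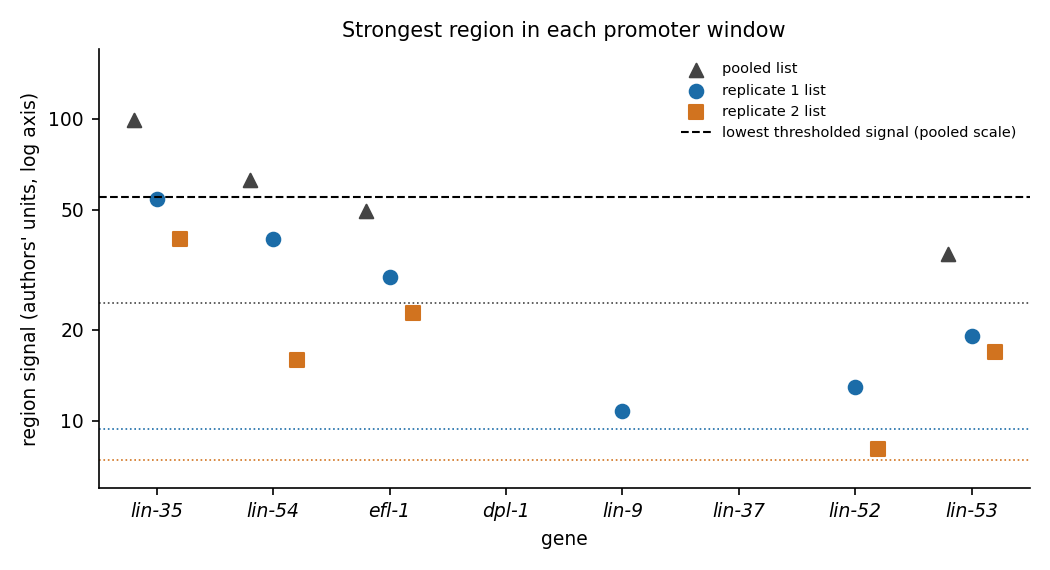
Signal of the strongest region in the promoter window of each gene (authors' units, log axis) in the pooled list and in the lists of replicates 1 and 2. Dotted lines mark the lowest signal of each list in its colour and the dashed line the lowest thresholded signal, 55, which applies to the pooled scale; lin-35 and lin-54 lie above it, efl-1 below it at 49.6, and no point is drawn for a gene without a region.

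The pocket protein gene lin-35, the only retinoblastoma family gene of the worm, had the strongest region of the set. The gene (WBGene00003020) runs on the plus strand of chromosome I from 5807709 to 5815637. The region lay on chromosome I from 5807218 to 5807607, with its summit at -296 bp in sequence that the annotation assigns to no gene. Its pooled signal was 99.4, rank 45 of 2689. In replicate 1 the signal was 54.3 (rank 74 of 22595, summit at -328 bp), and in replicate 2 it was 40.1 (rank 49 of 22358, summit at -296 bp). Both libraries thus placed this region among the strongest 0.328% and 0.219% of their lists, with summits 32 bp apart. A second, weaker region was listed in replicate 1 alone, at -129 bp with a signal of 15.9 (rank 3586).

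The neighbour that shares the lin-35 region is vps-51, which encodes a subunit of a vesicle tethering complex and is read from the opposite strand. The 5′ ends of the pair are 418 bp apart, and the summit lay -122 bp from vps-51, nearer than to lin-35. Only the weak replicate 1 region was nearest to lin-35 itself. A region between divergent genes cannot be assigned to either of them from these data. Among protein-coding genes, 59 others had a pooled region with a signal at least as high in their windows, vps-51 among them.

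The E2F gene efl-1 had a region close to the threshold but past it. E2F proteins bind DNA as pairs with a DP protein, which dpl-1 encodes. The gene efl-1 (WBGene00001161) runs on the minus strand of chromosome V from 16958590 to 16965675. Its region, on chromosome V from 16965704 to 16966093, had a pooled signal of 49.6 at rank 233, with the summit at -224 bp. The last thresholded region had a signal of 55.04 at rank 198, and the first past the threshold 54.9 at rank 199. In replicate 1 the signal was 29.8 (rank 286, summit at -248 bp), and in replicate 2 it was 22.7 (rank 199, summit at -201 bp).

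Of the member regions in the pooled list, that of efl-1 was the strongest whose summit lay nearest the member's own 5′ end. The gene fbxa-90, of the F-box A family, shares the window from the other strand. The 5′ end of fbxa-90 lies 1139 bp away, and the summit was at -915 bp from it. A weaker pooled region at -423 bp overlapped the first and had a signal of 25.5 (rank 2222) and a −log10 q-value of only 0.0323. The summit of replicate 1 nearest to it among the weaker ones lay at -512 bp, with a signal of 9.8 (rank 20512), near the lowest value of that list, and replicate 2 listed no second region.

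In contrast, dpl-1, the DP gene, had no region in its window in any list. It lies on the plus strand of chromosome II from 9169910 to 9172565. The nearest pooled summit was at -81735 bp. The nearest summit of replicate 1 lay at -5414 bp, with a signal of 9.66, and that of replicate 2 at -1886 bp, with a signal of 9.92 (rank 9734), in an exon of T23G7.2 outside its coding sequence. Of this E2F and DP pair, efl-1 thus had a region in each replicate list and in the pooled list called on the same libraries. No thresholded region lay in the efl-1 window, and dpl-1 had none in any list.

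Of the MuvB core, lin-54 had the strongest region. Its product is the subunit that binds the cell cycle homology region, CHR. The gene (WBGene00003037) lies on the plus strand of chromosome IV from 13241044 to 13243401. The region, on chromosome IV from 13240478 to 13240867, had a pooled signal of 62.7 at rank 147 and its summit at -371 bp. The replicates placed it differently. In replicate 1 the signal was 39.9 (rank 150 of 22595, summit at -369 bp), and in replicate 2 it was 15.9 (rank 1011 of 22358, summit at -361 bp). Summits of the replicates were 8 bp apart, so the position matched although the rank did not. The −log10 q-value of the region was 2.71 in replicate 1 but only 0.496 in replicate 2. For the stronger lin-35 region these values were 2.71 and 2.2. A second region of replicate 2, at -917 bp with a signal of 7.54 (rank 21476), was close to the lowest value of its list.

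The lin-54 region sat almost on the start of rpl-12, a gene for a protein of the large ribosomal subunit. The summit lay -22 bp from rpl-12, on the other strand, and the 5′ ends of the pair are 393 bp apart. All regions listed for lin-54 lay nearer rpl-12 than lin-54. Binding at lin-54 and binding at the ribosomal protein gene cannot be told apart here.

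The sequences under the summits of lin-54 and efl-1 are shown as the strongest member regions outside the chromosome that carries lin-35 and lin-53. All 6 pooled member regions were searched for the sites of the complex itself. The window ran 75 bp to each side of the pooled summit, on the plus strand of WBcel235 (RefSeq genome sequence), at chrIV:13240598-13240748 and chrV:16965824-16965974. Capitals mark exact matches on either strand to known forms of its sites, the E2F type TTCCCGC and the CHR type, whose letters are TTTGAA. They also mark a stretch of 16 bases, GTGGAGCGCNCTTGCA with N for any base, that was noticed when the windows were read and that both windows hold.
lin-54: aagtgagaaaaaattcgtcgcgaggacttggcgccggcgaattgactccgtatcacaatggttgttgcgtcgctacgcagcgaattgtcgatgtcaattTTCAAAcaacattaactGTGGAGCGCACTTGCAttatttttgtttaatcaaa
efl-1: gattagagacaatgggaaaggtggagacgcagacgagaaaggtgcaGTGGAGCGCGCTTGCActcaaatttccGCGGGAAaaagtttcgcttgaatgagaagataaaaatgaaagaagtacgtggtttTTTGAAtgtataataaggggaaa

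The efl-1 window held the E2F-type letters over its summit, starting 2 bp before it, and 1 copy of the CHR-type letters from 53 bp after it. The lin-54 window held 1 CHR-type copy from 24 bp after its summit and no exact copy of TTCCCGC. Other forms of the E2F type were not searched, so a window without these letters may still hold one. The E2F-type letters occurred in 6.06% of the 198 thresholded windows, in 2.05% of the 2491 pooled windows past the threshold and in 1.82% of 4449 background windows. Background windows were 1 in 10 of the replicate-list regions, taken along the genome, that overlapped no thresholded region. The CHR-type letters were common everywhere, in 40.9%, 33.3% and 39% of the same windows. The window of the stronger lin-53 region held 2 CHR-type copies, and that of lin-35 held neither of the searched forms. A match of such short letters is a description of the window and not a bound site.

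The member windows were also searched for the 8-base sequences that were most enriched under the other thresholded regions. With the lin-35 and lin-54 regions left out, the leading sequence was CTAGGCCA, in 46 of 196 summit windows against 2 of 392 windows 500 bp to either side. The leading sequence sharing no 5 bases with it was ACTCCTCT, in 37 against 3. With up to 1 mismatch on either strand they lay in 37.2% and 37.8% of the 196 windows, in 6.22% and 10.9% of pooled windows past the threshold, and in 4.81% and 8.23% of background windows. None of the 6 pooled regions at members held either sequence, with up to 1 mismatch, within 75 bp or within 150 bp of the summit. Windows without either were common, at 43.9% of the 196 and 84% of those past the threshold, where 4 of the 6 member regions lie, so this absence does not set the members apart.

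The lin-53 gene had 2 pooled regions, both past the threshold. It encodes a histone-binding protein of the RBBP4 and RBBP7 type, which also serves in other chromatin complexes. The gene (WBGene00003036) lies on the minus strand of chromosome I from 9618196 to 9619760. The stronger region, on chromosome I from 9619798 to 9620187, had a pooled signal of 35.6 at rank 496, and the weaker one 27.4 at rank 1541. Their −log10 q-values were low, 0.672 and 0.102, against 2.19 for the stronger efl-1 region. All thresholded regions, those of lin-35 and lin-54 among them, had 2.66, the highest value of the pooled list. In replicate 1 the nearer region had a signal of 16.2 (rank 3213, summit at -252 bp) and in replicate 2 one of 16.9 (rank 710, summit at -268 bp). The order of the regions turned between the libraries. Replicate 1 gave the farther one, at -527 bp, the higher signal of 19.1 (rank 1446), whereas replicate 2 gave it 9.38 (rank 11756, summit at -524 bp).

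The gene opposite lin-53 is nra-2, a nicalin relative that acts in the assembly of acetylcholine receptors. The stronger pooled summit lay almost midway between the pair, at -233 bp from lin-53 and -234 bp from nra-2. The weaker summit fell 65 bp inside nra-2, in a coding exon. Another region of replicate 2, at -780 bp from lin-53 with a signal of 10.8 (rank 7211), lay in an intron of nra-2.

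The other core genes, lin-9, lin-37 and lin-52, had at most weak entries in the replicate lists. For lin-9, which encodes a core subunit of MuvB, only replicate 1 listed a region, at -129 bp with a signal of 10.8 (rank 15790). This lay below the median of that list, 12, whose lowest signal was 9.41. Replicate 2 had its nearest summit at -2260 bp, in an intron of unc-32, the divergent gene 1483 bp away that encodes a subunit of the proton pump of vesicles. For lin-52, which encodes the small subunit that links the core to the pocket protein, replicate 1 listed a region at -456 bp (signal 13, rank 8543) and replicate 2 one at -632 bp (signal 8.07, rank 18299). Both summits lay in coding exons of ZK632.9, the gene upstream on the same strand, which ends 126 bp before lin-52. A replicate 1 summit in a coding exon of lin-52, 204 bp inside the gene, fell just outside the window, with a signal of 11 (rank 14920).

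For lin-37, a further core gene, no list had a region in the window. The nearest summits were at -1625 bp in replicate 1 (signal 9.62) and 2015 bp downstream in replicate 2 (signal 13.3, rank 2766), the latter in a coding exon of tmem-17. The gene upstream of lin-37, ZK418.5, lies on the same strand and ends 60 bp before it, and had no pooled region in its own window. Nor did ZK632.9 upstream of lin-52, so no pooled region was found at the start of either tandem pair.

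**Figure D2:**
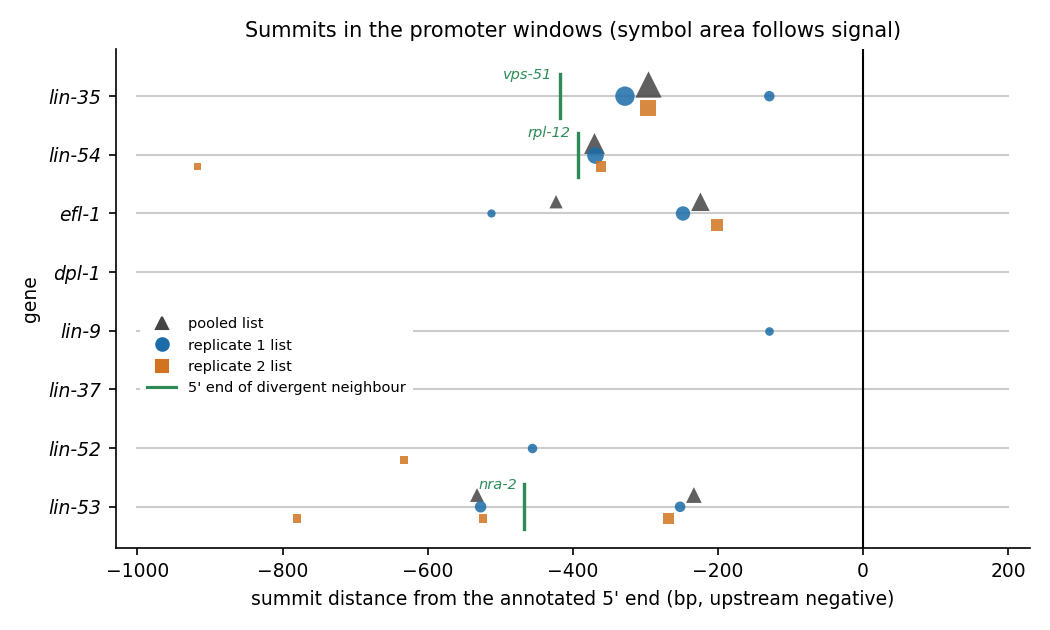
Distance of every listed summit from the annotated 5′ end of each gene (bp, upstream negative) in the pooled list and the lists of replicates 1 and 2, with symbol area following the signal. Green bars mark the 5′ end of a divergent neighbour under 1000 bp away; the strong summits of lin-35 and lin-54 lie between the pair of 5′ ends, and that of lin-54 at -371 bp almost touches that of rpl-12.

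Close head-to-head genes held pooled regions more often than other genes, and 3 of the 4 members with a pooled region had that arrangement. Of the 8 members, lin-35, lin-54 and lin-53 face a protein-coding gene on the other strand with less than 1000 bp between the genes, 417, 392 and 466 bp. All of these had a pooled region. Of the 3503 protein-coding genes arranged in this way, 14.7% had a pooled region and 3.68% a thresholded one, against 4.95% and 0.644% of 16465 others. The 5 protein-coding genes with no gene upstream on their chromosome were left out. A single region can count for both genes of such a pair, and the difference was not tested. Divergent neighbours of efl-1, lin-9 and dpl-1 lay farther off, at 1138, 1483 and 2079 bp, and of these only efl-1 had a pooled region. No pooled summit fell within any of the 8 genes.

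The lists of the replicates, which are longer than the pooled list and also hold background, covered more of the members. Replicate 1 listed a region in the window of 6 of 8 members, against 30.1% of protein-coding genes, and replicate 2 in 5 of 8, against 29%. Both lists had one for 5 of 8 members, lin-35, lin-54, efl-1, lin-52 and lin-53, against 12.9% of protein-coding genes. With summits within 200 bp of each other the count was again 5, against 8.95%.

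Replicate 1 gave higher signals than replicate 2 at most thresholded regions, and lin-54 stood toward that side. Over the 195 thresholded regions with a summit of each replicate within 200 bp, the ratio of replicate 1 to replicate 2 signal had a median of 1.68, with quartiles of 1.34 and 2.19. The signal scales of the libraries need not match, so the ratio is read only against that of other regions. At lin-35 the ratio was 1.35 and at efl-1 1.31, near the lower quartile. At lin-54 it was 2.51, with 30 of the 195 regions higher. In replicate 2 only 16 of the 195 regions ranked worse than that of lin-54. The lin-54 region was thus thresholded with a replicate 2 signal near the low end of the thresholded regions. With 2 libraries the spread between them has no error of its own, and no test was made.

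**Figure D3:**
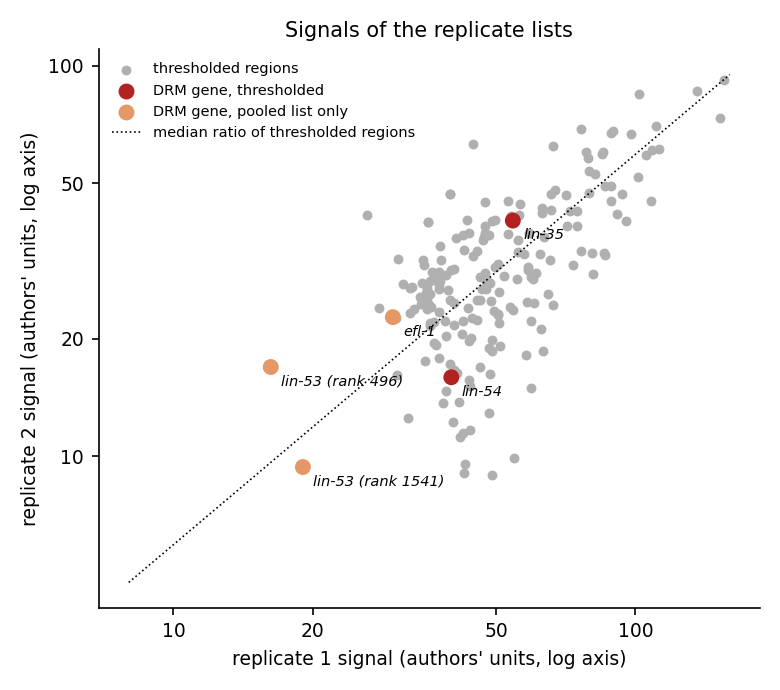
Signal in replicate 1 (horizontal axis) and in replicate 2 (vertical axis; authors' units, both axes log) for the thresholded regions, in grey, and for regions at members in the pooled list, with the strongest summit within 200 bp taken from each replicate. Regions that lack such a summit in a replicate, among them the weaker efl-1 region, are not drawn. The dotted line is the median ratio of 1.68; lin-35 lies above it and lin-54 below it, with 15.9 in replicate 2.

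Of 49 genes in 5 lists around the complex, 1 (2.04%) had a thresholded region and 9 (18.4%) had a pooled one, against 1.18% and 6.66% of protein-coding genes. The thresholded share is near that of all protein-coding genes, and neither share was tested. The thresholded one was pcn-1, the replication clamp, with its summit at -350 bp, a pooled signal of 67.3 at rank 123, and signals of 37.6 and 29.7 in replicates 1 and 2. No other gene had this pcn-1 region in its window.

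Genes of DNA replication are a class repressed by DREAM complexes in other animals. Of 16 S phase genes, 5 had a pooled region, against 6.66% of protein-coding genes, and orc-1, cdc-6, pri-1 and mcm-4 were those besides pcn-1. The origin recognition gene orc-1 had a signal of 39.7 (rank 365, summit at -255 bp), but the summit lay -9 bp from dhs-11, a dehydrogenase gene. The licensing gene cdc-6 had 37.1 (rank 434, -337 bp), with the summit at -42 bp from acin-1. The primase gene pri-1 had 33.4 (rank 606, -119 bp), with the summit at -82 bp from F58A4.6. The helicase gene mcm-4 had 32.6 (rank 664, -205 bp) and shared its region with no other gene. In replicate 1 the best signals in the windows of mcm-4, pri-1 and cdc-6 were 12.9, 13.4 and 14, against a list median of 12. That of orc-1 was 24.4. Replicate 2 gave mcm-4, pri-1, cdc-6 and orc-1 16.1, 20.7, 18.4 and 15.8, against a list median of 9.53.

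The other lists are shorter, and their counts are set against the same 6.66%. Of 12 synMuv B genes outside the complex, only let-418, a chromatin remodeller gene of the Mi-2 type, had a pooled region (signal 25.17, rank 2363). Of 4 synMuv A genes, lin-8 (25.6, rank 2161) and lin-38 (27.8, rank 1442) had one, the latter shared with mrpl-37, a mitochondrial ribosome gene. The signals at let-418, lin-8 and lin-38 lay below the pooled median of 28.1, and the lowest pooled signal was 24.5. Of 15 cell cycle regulators, cyb-1, a cyclin B gene, had one (32.6, rank 663), which lay nearer orc-5, at -150 bp, than cyb-1, at -478 bp. Replicate 1 listed no region in the cyb-1 window. The paralogs efl-2 and rba-1, of efl-1 and lin-53, had none in the pooled list.

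**Figure D4:**
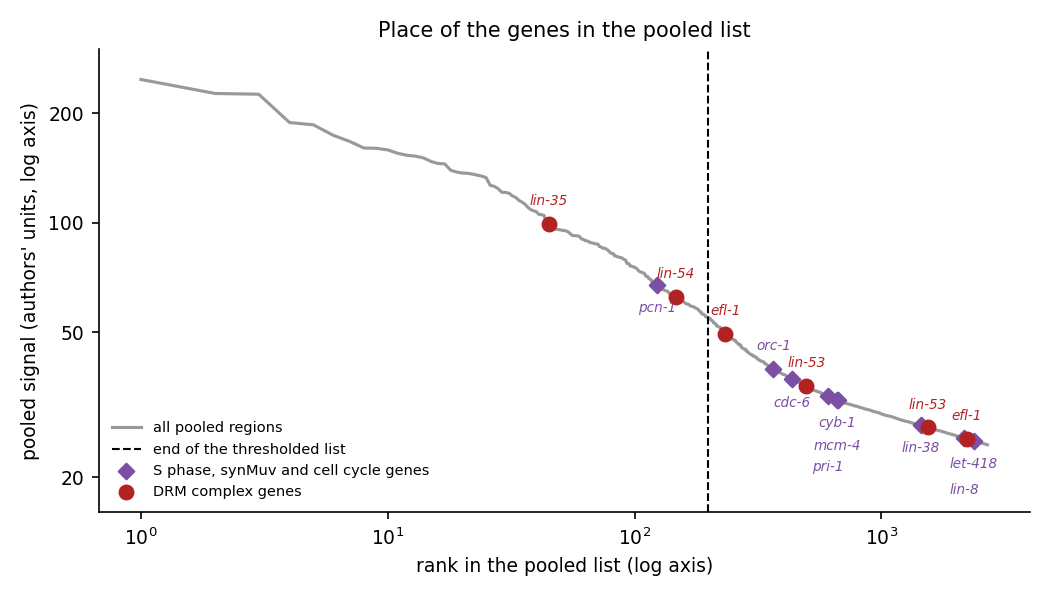
Signal against rank in the pooled list (authors' units, both axes log), with the DRM complex genes in red, the other genes around the complex in purple and the end of the thresholded list dashed. Of the marked genes lin-35, pcn-1 and lin-54 lie inside the threshold and efl-1, at rank 233, lies next past it.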

How the data were processed

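The authors deposited regions in narrowPeak form, per the file headers and accompanying notes: 1 list per replicate, called with a control, a pooled list called on both alignments, and an IDR-thresholded list derived from these. Lists on ce11 were used, those on ce10 were not. The signal per region, the −log10 q-value and the summit offset are as the authors deposited them. No source used here names the peak caller, the aligner, the IDR threshold or the read depth, so no interval could be given. Regions were ranked by signal within a list.

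Gene models were those of Ensembl release 115 on WBcel235, and bases were read from RefSeq's copy of that build. All 8 members and all 49 genes of the other lists matched by symbol. The members and lists were chosen with earlier results of these data known, and no test was made on them. Counts stand beside the share of all genes with a summit in the same window. The 8-base sequences were ranked by the difference in share between summit windows and flanks. Named genes were the members, every gene sharing a thresholded or pooled region with a member, the nearest gene for replicate regions, and all genes of the other lists with a pooled region. Other genes were named for their place beside a member. Alternatives changed the window, the 5′ ends, the overlap, the library and the length searched. The code was tested on simulated data with planted regions. Python 3.11.15, NumPy 2.4.6, pandas 2.3.3 and Matplotlib 3.10.9 were used.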

Additional observations from a re-analysis of the deposited data

How the results depend on the processing

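Of 8 members, 2 had a thresholded region with windows of 500 to 100 bp and of 2000 to 500 bp, with all transcript 5′ ends and with overlap of at least 1 bp in place of the summit. Under these changes the share of protein-coding genes ran from 0.956% to 1.47%. Taking as many of the best regions of 1 library left 1 without replicate 1, lin-35, and 2 without replicate 2, against 1.06% and 1.12% of protein-coding genes. The stronger 99 thresholded regions held 1, lin-35, against 0.641% of protein-coding genes, so lin-54 rests on the weaker ones and on replicate 1. The pooled count was 4 of 8 under all 4 changes of window, 5′ end or overlap, with the same 4 genes. There the share of protein-coding genes ran from 4.78% to 9.97%. Counts in the replicate lists ran from 4 to 7 for replicate 1, 4 to 6 for replicate 2 and 4 to 5 for both. Beside them the shares of protein-coding genes ran from 5.73% to 48.9%, 4.73% to 47.6% and 1.96% to 27.6%. The 7 of replicate 1 came from the window of 2000 to 500 bp, where the share was 48.9%. Of the genes around the complex, pcn-1 alone had a thresholded region in all 4 alternatives. At least 1 searched sequence, in each case the CHR type, lay under 3 of the 6 pooled member regions and under 4 with 150 bp to each side, where 45.8% and 70.8% of pooled windows past the threshold held one. Exact 8-base matches could not change the 3, since no 8-base sequence matched. No paired analysis was possible because there is only 1 group.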

Other observations

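The stretch shared by the lin-54 and efl-1 windows, printed with them above, was found after the windows were read, as the longest run they share with at most 1 differing base. It occurs 150 times in the nuclear genome on either strand, 37 times in the promoter window of a protein-coding gene, and 14 times with its middle within 91 bp of a summit of any of the 4 lists. The share of the genome in such windows or that near to a summit was not computed, so these counts cannot be read as an excess. Besides lin-54, 1 of the 198 thresholded windows held it in full, at rank 76, in the promoter window of no protein-coding gene. With 1 further mismatch, those of lem-2 (rank 74) and of fib-1 with mut-15 (rank 117) did too. The stretch was taken from the lin-54 and efl-1 windows, so shares are given without the members. With up to 1 mismatch it lay in 1.53% of 196 thresholded windows, 0.523% of 2487 pooled windows past the threshold and 0.0899% of background windows. The lin-35 window came no closer than 7 mismatches, and the stronger lin-53 window no closer than 4.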
